A study of Bos taurus with 4 samples.

Results

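Cattle chromosome 18 was examined for open chromatin in rumen epithelial primary cells, as the intervals that ATAC-seq peak lists place on it. ATAC-seq uses a transposase that inserts sequencing adapters where chromatin is accessible, so a listed interval marks a stretch of DNA that was open in many cells. The members were selected on what was measured: an interval entered by being listed as a peak on chromosome 18 in at least 1 library, and intervals that overlapped by 1 bp or more were merged into 1 region. This gave 4104 regions of 115970 in the whole series, against 108761 on the other 28 autosomes.

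The series held 4 libraries in 2 pairs. The BT-named pair carries names for butyrate in the deposited table and in the sample descriptions, and the Control-named pair carries the control name there. The titles, source names and treatment field of the same samples state the reverse, with the control-named pair as the one given butyrate. Both readings give the same pairs, so the direction of every difference below rests on which label is right. Treatment was 5 mM butyrate for 24 h, and all cells came from 1 Holstein bull calf aged 2 weeks that had been fed milk replacer only. The study calls the libraries biological replicates without stating separate cultures, so p-values speak for these libraries only. The limma p-values and SE below rest in part on a variance trend over all regions or windows. They thus do not measure the spread of the tested item alone.

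Butyrate is a short-chain fatty acid that rumen microbes make in bulk and that rumen epithelium takes up and burns. It also inhibits histone deacetylases, the enzymes that strip acetyl groups from histones, and acetylated histones are a mark of open chromatin. CpG islands are stretches rich in the CG dinucleotide that lie at most housekeeping promoters and tend to be open in every cell type. Open regions away from promoters are more often enhancers, which differ between cell types and states. In a bulk assay, fewer cells with an open region and a less open region in each cell cannot be told apart.

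Promoters of 6 of 10 epithelial marker genes were listed in all 4 libraries, among them those of KRT5, KRT8 and KRT14. No library listed the promoters of CDH1, TP63 or GRHL2. Of 7 fibroblast markers 2, VIM and COL1A2, had promoters in all 4 lists. For endothelial markers this was 1 of 4, KDR, and for muscle markers 1 of 4, the smooth muscle ACTA2. In no list were 2 of the fibroblast, 3 of the endothelial, 1 of the muscle and all 5 of the immune markers. The label of epithelial cells is thus met in part. The part of other cell types in the differences below was not tested.

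BT-named libraries listed fewer intervals than Control-named libraries, and by less on chromosome 18 than elsewhere. Chromosome 18 held 3194 and 3263 listed intervals in the BT-named libraries, against 3364 and 3554 in the Control-named libraries, so the pairs did not overlap. The mean was 3228.5 ± 48.8 in BT-named and 3459 ± 134 in Control-named libraries (SD, n = 2 each), a difference of -6.66%. Over the other autosomes the same comparison gave 78749.5 ± 911 and 91083 ± 2597 intervals (SD, n = 2 each), a difference of -13.5%. The length covered on chromosome 18 was 1469 and 1483 kb in BT-named and 1595 and 1694 kb in Control-named libraries, a difference of -10.3%, beside -17.8% on the other autosomes.

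The share of a library's intervals that lay on chromosome 18 sets aside what a library had more or less of on all chromosomes. That share was 3.83% and 3.85% in the BT-named libraries, and 3.54% and 3.59% in the Control-named libraries. Both BT-named libraries were above both Control-named libraries, by 0.272 percentage points on average. The exact permutation test gave p = 0.333 for the number of intervals, the covered length and the share (two-sided, 2 against 2), which is the smallest p that this design allows.

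Intervals of chromosome 18 were also taller than those of the other autosomes combined in every library. Their median peak value, the signal at the summit, was 103 and 105 in BT-named and 111 and 121 in Control-named libraries. On the other autosomes it was 82 in both BT-named libraries, and 93 and 98 in the Control-named libraries. The lowest listed peak value on chromosome 18 was 24 or 25 in each library, near the edge of the whole lists at 21 or 22. Regions seen in a single library had median peak values of 36.5 to 42.0, low among listed values, and highest peak values of 143 to 180. A region absent from a list can thus still have signal below that edge.

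Most regions were common to all libraries. A region is called BT-only here if both BT-named libraries listed it and neither Control-named library did, and Control-only in the opposite case. Of the 4104 regions, 2604 (63.5%) were listed in all 4 libraries, 205 (5.00%) were BT-only, 367 (8.94%) were Control-only, and 928 had other combinations. Over the whole series 4.51% of regions were BT-only and 13.1% Control-only. Chromosome 18 thus had 1.79 Control-only regions for each BT-only region, the lowest ratio of the 29 autosomes, whose other members had a median of 3.07. It also had the lowest share of Control-only regions, ahead of chromosome 29 with 9.96%. With BT-named replicate 1 left out the BT-only count was 329, and with Control-named replicate 1 left out the Control-only count was 563, as 1 list less has to hold a region.

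**Figure D1:**
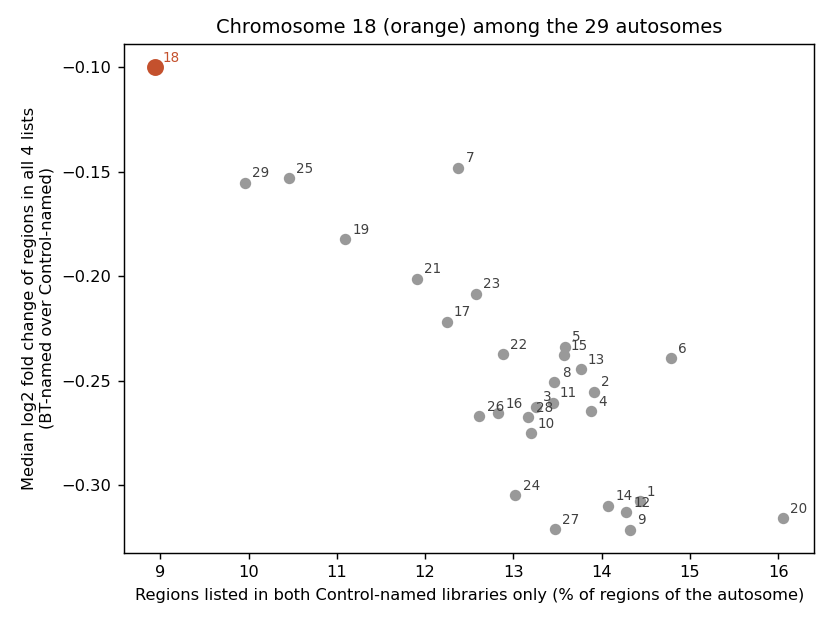
Each point is 1 of the 29 autosomes, numbered. The horizontal axis gives the percent of its regions that were Control-only and the vertical axis the median log2 fold change of its regions in all 4 lists. Chromosome 18, in orange at 8.94% and -0.10, stands at the upper left corner.

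Among regions in all 4 lists, the average value over the interval was compared with limma. The median log2 fold change was -0.10 over the 2604 regions of chromosome 18 and -0.24 over the 61783 regions of the other autosomes. This was the highest median of any autosome, and chromosome 7 came next with -0.15. Centring each library on its median added 0.36 to every fold change, which makes both medians positive and leaves their difference as it was. Per library, the median of chromosome 18 lay above that of the other autosomes by 0.29 and 0.32 log2 units in the BT-named libraries, and by 0.13 and 0.17 in the Control-named libraries. Shared regions of chromosome 18 thus had the higher median in all 4 libraries, and by more in the BT-named pair (exact permutation p = 0.333, two-sided, 2 against 2).

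Scaling moves the balance of calls. A region is therefore called higher or lower only where limma's adjusted p passed 0.05 in the same direction as deposited, after median centring and after quantile normalization. By this rule 246 regions of chromosome 18 (9.45%) were higher in BT-named libraries, beside 6.89% of all regions tested, and 350 (13.4%) were lower, beside 20%. Only chromosome 29 had a larger share of higher regions (10.1%), and no autosome had a smaller share of lower ones. As deposited, 246 were higher and 730 lower on chromosome 18, where 6.9% and 39.4% of all regions were called. The share of calls that were higher was 41.3% under the 3 scalings jointly, 25.2% as deposited, 75.0% after median centring and 68.2% after quantile normalization. Over all regions tested these shares were 25.6%, 14.9%, 59.7% and 50.7% in the same order. The count of higher regions was 152 without BT-named replicate 1 and 129 without BT-named replicate 2.

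The chromosome is rich in genes and CpG islands. With 62.2 regions per Mb it was the third densest autosome, behind chromosomes 19 and 25. CpG islands touched 27.97% of its regions and 19.9% were promoters, second in both to chromosome 25, against 16.3% and 13.1% over the other autosomes. Values were therefore compared within each kind of place.

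The difference was present in each kind of place. Promoters with a CpG island had a median log2 fold change of -0.05 on chromosome 18 (540 regions) and -0.12 on the other autosomes (8796 regions). Regions in gene bodies without a CpG island had -0.24 on chromosome 18 (835 regions) and -0.37 elsewhere (23870 regions). Chromosome 18 had the highest median of the 29 autosomes in both kinds, and also in promoters without an island, in islands outside promoters and in gene flanks.

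In intergenic regions without an island it came the sixth, with -0.21 on chromosome 18 and -0.29 elsewhere. The Control-only shares were also lower on chromosome 18 in each kind of place. For islands outside promoters this share was 4.15% on chromosome 18 and 8.33% elsewhere, and for promoters without an island 6.09% and 12.4%. For promoters with an island the shares were 3.72% and 4.36%, and chromosome 18 had the tenth lowest share. These comparisons across regions are descriptions, as neighbouring regions are not replicates.

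**Figure D2:**
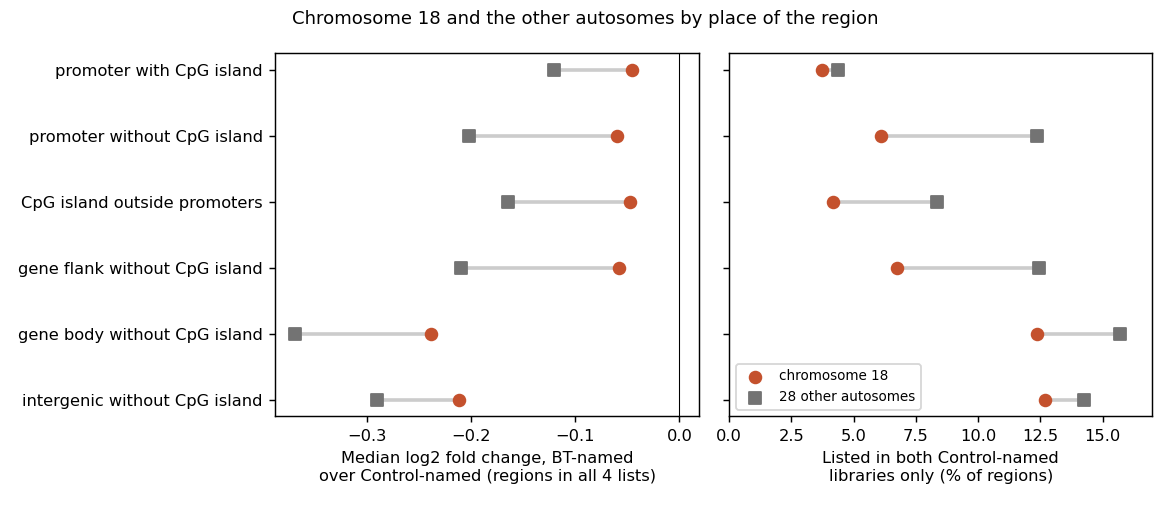
Rows are kinds of place, orange circles chromosome 18 and grey squares the 28 other autosomes combined. The left panel gives the median log2 fold change of regions in all 4 lists and the right panel the percent of Control-only regions. The orange point lies to the right in each row of the left panel and to the left in each row of the right panel.

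Regions of different height gave the same order. Shared autosomal regions were cut into 3 groups of equal size by mean average value. In the lowest group the median log2 fold change was -0.05 on chromosome 18 and -0.12 elsewhere, in the middle group -0.13 and -0.33, and in the highest group -0.10 and -0.28. The difference was thus present at each height.

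Along the chromosome, the difference from the rest of the genome was largest at the distal end. The chromosome was divided into 3 equal stretches of 22 Mb after its windows had been seen. From 44 Mb to the end, 1858 regions included 111 BT-only and 90 Control-only regions. In the first stretch, up to 22 Mb, the counts were 53 and 159 of 1217 regions, and in the middle stretch 41 and 118 of 1029. The distal stretch was the one in which BT-only regions outnumbered Control-only regions.

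Interval counts in the distal stretch were 1542 and 1580 in BT-named libraries, and 1508 and 1580 in Control-named libraries, so the pairs overlapped. In the first stretch they were 877 and 912 in BT-named libraries, against 994 and 1066 in Control-named libraries, with no overlap. The distal stretch held 48.3% and 48.4% of the chromosome's intervals in the BT-named libraries, against 44.8% and 44.5% in the Control-named libraries, a difference of 3.71 percentage points. As the stretch was chosen after its windows had been seen, this difference is given with no test.

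Signal in shared regions followed the same course. The median log2 fold change was -0.20 in the first stretch, -0.22 in the middle and -0.03 in the distal stretch. Higher regions made up 6.03%, 5.87% and 13.2% of the shared regions of the 3 stretches in that order, and lower regions 18.9%, 18.9% and 7.61%. CpG islands touched 38.9% of distal regions, beside 19.4% and 18.5% of the others. Within regions without an island the medians were -0.25, -0.29 and -0.05, and within island regions -0.11, -0.14 and -0.01.

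Cut the same way, the autosomes gave 123 stretches of 22 Mb with at least 200 regions. The distal stretch of chromosome 18 had the highest median log2 fold change of the 123, the lowest share of Control-only regions, the lowest share of lower regions and the highest share of CpG islands. It had the third highest share of higher regions. The first 22 Mb of chromosome 7 came second by median (-0.05) and by share of lower regions (8.28%). They also came second by Control-only share, with 7.28% against 4.85% in the distal stretch of chromosome 18. The first and middle stretches of chromosome 18 were 20th and 31st by median. With a single division at 33 Mb, the distal side held 136 BT-only and 161 Control-only regions, against 69 and 206 on the proximal side.

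The chromosome spans 67 windows of 1 Mb, which held 1 to 165 regions each with a median of 50. Of these, 61 had at least 5 shared regions and were tested with limma on their mean average value. No window (0 of 61) was higher in BT-named libraries under all 3 scalings, beside 1.56% of all windows, and 8 were lower (13.1%), beside 20.7%. At an unadjusted p under 0.05 as deposited the count of higher windows was also 0, while after median centring alone 40 windows (65.6%) were called higher, beside 39.6% of all windows. Leaving out Control-named replicate 2 gave 9 higher windows (14.8%), beside 3.96% of all. The 8 lower windows became 5 when BT-named replicate 1 was left out and 4 when Control-named replicate 1 was. All 8 began before 44 Mb, among 39 windows tested there, and 0 of the 22 tested from 44 Mb on were lower.

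The window from 20 to 21 Mb had the largest decrease. Its mean average value was 82.7 and 77.8 in BT-named libraries, against 134 and 143 in Control-named libraries. The log2 fold change was -0.78 ± 0.08 as deposited (SE, limma adjusted p = 2.82e-22). After median centring it was -0.42 and after quantile normalization -0.49 (limma adjusted p = 1.61e-05 and 6.11e-06). Among the window's 40 regions 1 was a promoter, 1 was BT-only and 9 were Control-only. Of its 23 shared regions 14 were lower. The window was picked for its decrease, so many lower regions go with that choice. Over the chromosome 8.94% of regions were Control-only and 13.4% of shared regions lower, beside 13.1% and 20% of all regions.

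The window from 6 to 7 Mb came next, with 64.9 and 65.98 in BT-named and 102 and 117 in Control-named libraries (log2 fold change -0.73 ± 0.07 as deposited, SE, limma adjusted p = 2.27e-21). It had -0.37 after median centring and -0.41 after quantile normalization (limma adjusted p = 3.95e-05 and 1.50e-05). Its named promoter is that of MAF, a basic leucine zipper transcription factor. The MAF promoter region of highest mean value was not called. It had 182 and 215.5 in BT-named libraries and 204 and 218 in Control-named libraries (log2 fold change -0.09, limma adjusted p = 0.619). The window from 9 to 10 Mb, which holds the promoter of CDH13, an atypical cadherin anchored to the membrane by a lipid, had -0.59 ± 0.07 (SE, limma adjusted p = 1.59e-14). After median centring it had -0.23 and after quantile normalization -0.26 (limma adjusted p = 0.00264 and 0.000922). Of the 58 regions of this window, 0 were BT-only and 15 Control-only. Among the other lower windows, that from 22 to 23 Mb holds FTO, IRX3 and RPGRIP1L, and that from 32 to 33 Mb holds CDH11.

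The largest window fold changes in the other direction were small as deposited and depended on the scaling. The window from 64 to 65 Mb had 141 and 147 in BT-named libraries, against 126 and 137 in Control-named libraries. Its log2 fold change of 0.13 ± 0.08 as deposited did not pass the test (SE, limma adjusted p = 0.108). After median centring it was 0.50 and after quantile normalization 0.44 (limma adjusted p = 1.07e-06 and 2.61e-06). All of its 8 promoters of named genes belong to zinc-finger genes, among them ZNF304, ZNF419 and ZNF772. The windows from 17 to 18 Mb, with N4BP1, and from 57 to 58 Mb, with POLD1 and ZNF175, had 0.11 ± 0.07 and 0.09 ± 0.08 as deposited (SE, limma adjusted p = 0.169 and 0.302). They had 0.47 and 0.45 after median centring, and 0.46 and 0.38 after quantile normalization, and passed the test under both of these scalings.

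**Figure D3:**
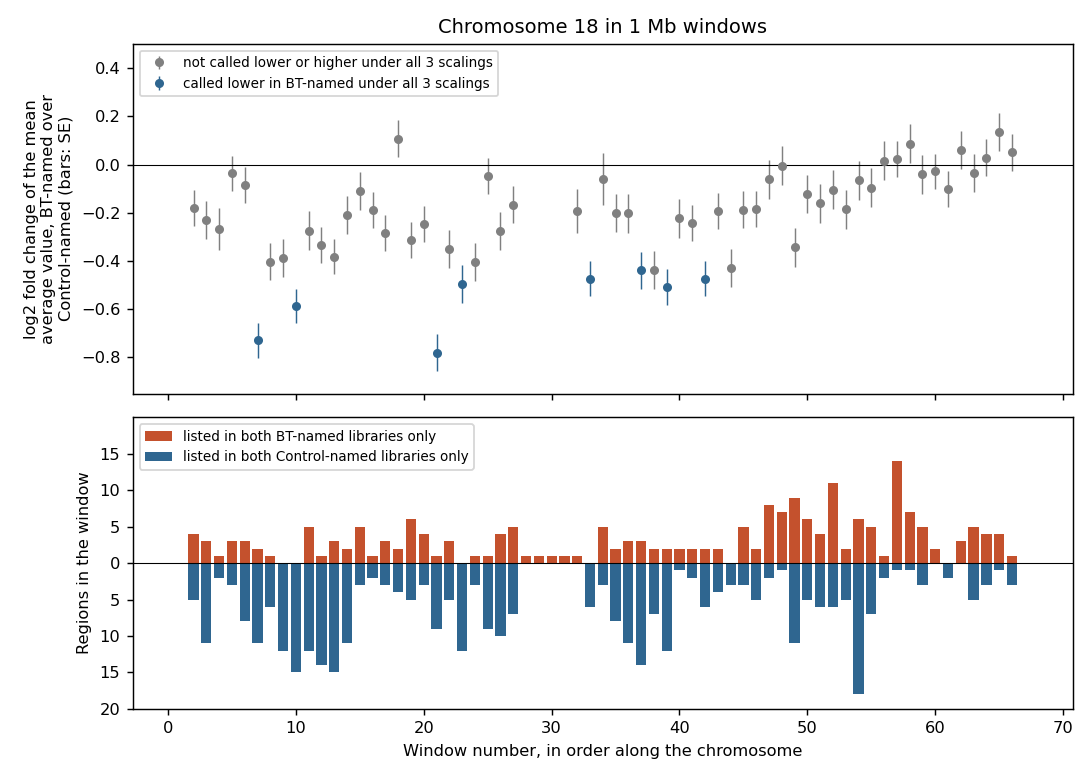
The horizontal axis numbers the 67 windows of 1 Mb in order along the chromosome. The upper panel gives the log2 fold change with its SE for the 61 tested windows, with the 8 lower ones in blue, and the lower panel counts BT-only (orange, up) and Control-only (blue, down) regions. The blue points of the upper panel all lie left of window 45, which starts at 44 Mb.

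Regions were spread unevenly over these windows. The most crowded ran from 53 to 54 Mb with 165 regions, from 54 to 55 Mb with 154 and from 56 to 57 Mb with 142, and all lay in the distal stretch. The window from 53 to 54 Mb holds RELB, ERCC1, ERCC2, FOSB and TOMM40, and had 6 BT-only and 18 Control-only regions. The window from 56 to 57 Mb had 14 BT-only regions and 1 Control-only region, the largest excess of BT-only regions. The emptiest windows lay at 66 to 67 Mb with 1 region, at 30 to 31 Mb with 2, and at 0 to 1 and 28 to 29 Mb with 3 each.

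The tallest regions were mostly promoters, and none of the first 6 was called. An intergenic CpG island at chr18:51338191-51339441 (UMD3.1, as all positions here) had peak values of 886 and 917 in BT-named and 958 and 1038 in Control-named libraries. The shared promoter of RANBP10 and TSNAXIP1 had 904 and 936 in BT-named and 915 and 979 in Control-named libraries. That of TOMM40, the pore of the mitochondrial import machinery, had 883 and 933 in BT-named and 894 and 973 in Control-named libraries.

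The other 3 of the 6 tallest were the promoters of ANKRD11, a chromatin-associated ankyrin repeat protein, of SUV420H2, a histone H4 methyltransferase, and a promoter shared by SIRT2, a deacetylase, and NFKBIB, an inhibitor of NF-kappa-B. The log2 fold changes of the 6 ran from -0.08 to 0.02 as deposited. Median centring made all 6 fold changes positive.

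Promoters called under all 3 scalings more often rose than fell, while as deposited alone more were lower than higher. Of 718 genes of chromosome 18 with a promoter region in all 4 lists, 53 were higher (7.38%), beside 4.07% of all gene promoters, and 19 were lower (2.65%), beside 4.74%. With values as deposited alone, 53 were higher (7.38%) and 97 lower (13.5%), beside 4.07% and 20.5% of all gene promoters. Over these promoters the median log2 fold change was -0.05, and -0.12 over the 12311 gene promoters elsewhere. Of the 246 higher regions 52 were promoters (21.1%) and 94 lay in gene bodies (38.2%), near the 25.4% and 41.0% of all 2604 shared regions. Of the 350 lower regions 23 were promoters (6.57%) and 193 lay in gene bodies (55.1%).

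The largest increase was at the promoter of LOC104974908 (chr18:56575331-56575940), an uncharacterised locus. It had 140.5 and 158 in BT-named libraries, against 52.1 and 46.1 in Control-named libraries. The log2 fold change was 1.58 ± 0.17 (SE, limma adjusted p = 3.72e-15). As this promoter was picked for its called increase, its pairs had to differ.

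LOC100139325 (chr18:65490569-65491094) had 85.9 and 119 in BT-named libraries, against 38.4 and 35.7 in Control-named libraries, a log2 difference of 1.42 ± 0.19 (SE, limma adjusted p = 3.48e-11). The promoter shared by ZNF793, a zinc-finger gene, and LOC100848226 (chr18:47454355-47455139) had 135 and 126 in BT-named libraries, against 53.7 and 55.4 in Control-named libraries. Its log2 fold change was 1.24 ± 0.17 (SE, limma adjusted p = 2.12e-10). As 1 region lies at both starts, the signal cannot be assigned to either gene.

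TTYH1, which encodes a membrane protein of the tweety family of anion channels, had 83.7 and 71.0 in BT-named libraries, against 29.2 and 37.9 in Control-named libraries at chr18:63090525-63090898. The log2 fold change was 1.19 ± 0.20 (SE, limma adjusted p = 6.84e-08). The promoter region of MIR935, a microRNA gene, had 59.4 and 56.8 in BT-named libraries, against 24.8 and 25.6 in Control-named libraries, where its peak values of 29 and 31 were close to the lowest listed. Its log2 fold change was 1.17. Next came LOC785907, LOC101903977 and LOC101903309, with log2 fold changes of 1.08, 1.01 and 0.86.

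SLC6A16, an orphan member of a family of neurotransmitter and amino acid transporters, rose by 0.80 on the log2 scale. VSIG10L, an immunoglobulin-domain gene, had 54.4 and 55.9 in BT-named libraries, against 38.6 and 25.8 in Control-named libraries, with 0.79. Without Control-named replicate 2 its fold change was 0.51 and was no longer called. All 10 of these increases lay beyond 44 Mb, where 59.2% of the 718 tested genes and 5 of the 10 largest promoter decreases also lay.

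The largest decrease among promoters was at PGLYRP1, a peptidoglycan recognition protein that acts against bacteria (chr18:53948040-53948599). Its values were 36.4 and 42.2 in BT-named libraries, against 86.6 and 101 in Control-named libraries. The log2 fold change was -1.23 ± 0.19 (SE, limma adjusted p = 6.31e-09). LOC100849237 followed with -1.20.

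ZNF469, a large zinc-finger gene linked in humans to the structure of the cornea, had 34.2 and 30 in BT-named libraries, against 59.0 and 81.3 in Control-named libraries (chr18:13504362-13505131). B3GNT8, a glycosyltransferase that lengthens sugar chains on glycoproteins, had 96.0 and 84.1 in BT-named libraries, against 172 and 210.2 in Control-named libraries. Their log2 fold changes were -1.09 ± 0.20 and -1.07 ± 0.15 (SE, limma adjusted p = 8.93e-07 and 9.93e-10). Both were picked for their called decrease, so their pairs had to differ.

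LCAT, which esterifies cholesterol in lipoproteins, had 102 and 95.3 in BT-named libraries, against 196 and 195 in Control-named libraries (log2 fold change -0.98 ± 0.15, SE, limma adjusted p = 9.16e-09). FA2H, which hydroxylates the fatty acids of sphingolipids, had 104 and 105 in BT-named libraries, against 185 and 221 in Control-named libraries, with -0.95. SDR42E1, a member of the short-chain dehydrogenase family, had a log2 fold change of -0.997, and LOC101902852 and LOC101904248 had -1.08 and -1.05. KIAA0355 had -0.98, and without BT-named replicate 1 it had -0.77 and was no longer called.

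**Figure D4:**
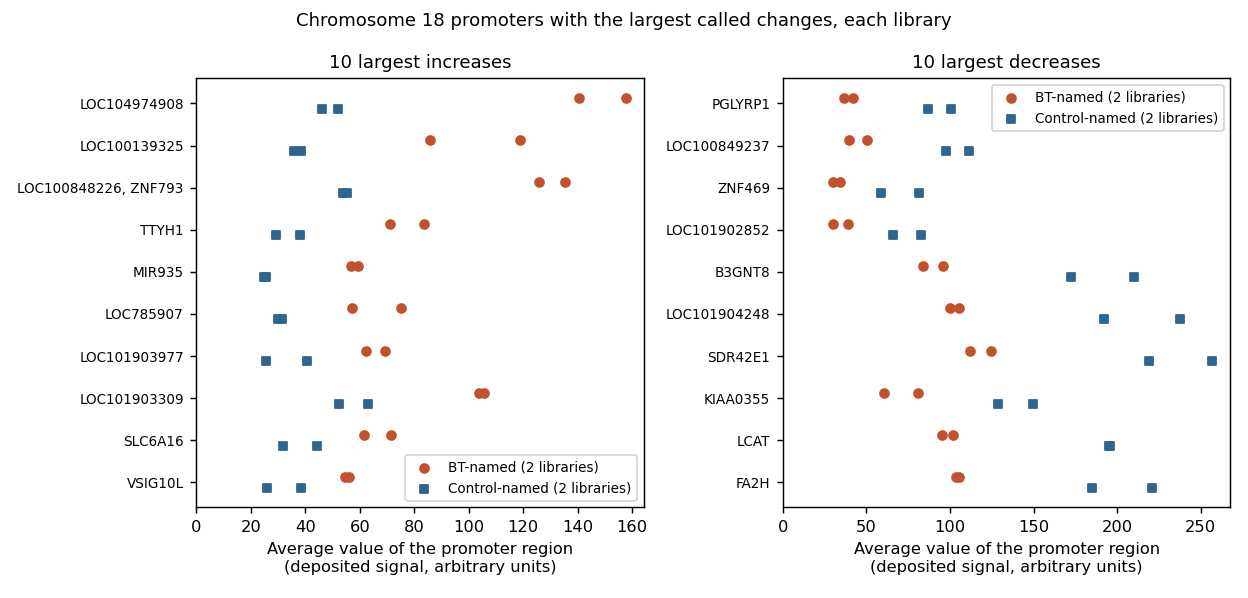
Points are the average values of single libraries, BT-named as orange circles above Control-named as blue squares, for the 10 promoter regions that rose most (left) and the 10 that fell most (right). The values are in the arbitrary units of the deposited signal. In each row the 2 orange and the 2 blue points are separate, which goes with picking the rows by their called change.

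Some promoters crossed the listing threshold in 1 pair only. Such members had to differ, so their values are given as a description. Of the 809 genes with a promoter region on the chromosome, 19 (2.35%) had a BT-only promoter region, beside 2.16% of such genes on other chromosomes, and 6 of the 19 had another promoter region in all 4 lists. A Control-only promoter region was found for 39 genes (4.82%), beside 7.22% on other chromosomes, and 22 of the 39 had another in all 4 lists.

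The tallest BT-only promoter was that of LOC104974915, with peak values of 188 and 202. IZUMO2, of a family of sperm proteins, had 72 and 104. The nearest region listed in both Control-named libraries lay 4517 bp from the IZUMO2 region. A region at the starts of ZNF296 and GEMIN7, a component of the complex that assembles spliceosomal particles, had 90 and 81.

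LOC101905804 had peak values of 127 and 118, and LOC104974953 had 78 and 88. The BT-only regions at DEF8 and at CALM3, a calmodulin gene, lay 283 and 207 bp from a region that both Control-named libraries listed. DEF8 also had a Control-only promoter region, and both genes had a promoter region in all 4 lists.

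The tallest Control-only promoter region was that of MYADM, a membrane protein first described in myeloid cells, with peak values of 252 and 288. The nearest region listed in both BT-named libraries lay 1574 bp away, and MYADM had no promoter region in all 4 lists. PPP1R15A, which directs a phosphatase to the translation factor eIF2-alpha under stress, had 196 and 191 in such a region. Its main promoter region was in all 4 lists with a log2 fold change of -0.01.

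ZNF423, a zinc-finger transcription factor of neural and fat cell development, had peak values of 104 and 124 in Control-named libraries, 809 bp from the nearest region of both BT-named libraries. RFWD3, a ubiquitin ligase of DNA repair, had 115 and 137, SPATA2L had 124 and 126, and LOC104974797 had 109 and 133. The regions at TRADD and FBXL8, which share 1 region near the start of an adaptor of tumour necrosis factor receptors, and at MAF lay 328 and 88 bp from a region that both BT-named libraries listed.

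The largest called changes away from promoters were larger than those at promoters. Only extremes are compared here, and 662 of the 2604 shared regions were promoters. A region in SHKBP1, whose product binds an adaptor of growth factor receptors, had 180.0 and 213 in BT-named libraries, against 64.8 and 61.6 in Control-named libraries at chr18:50157692-50158111 (1.62 ± 0.16, SE, limma adjusted p = 3.81e-17).

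A region 6705 bp upstream of LOC101907857 rose by 1.61 on the log2 scale. One in the body of GRIN2D, a subunit of glutamate receptors, rose by 1.41. A region 7808 bp upstream of KLK10, a kallikrein protease of epithelia, lay in the body of a different gene. It had 168 and 196 in BT-named libraries, against 62.6 and 78.3 in Control-named libraries (1.36 ± 0.16, SE, limma adjusted p = 3.44e-13). Another lay 6867 bp from the start of GFY, downstream of GFY and in the body of a different gene, and rose by 1.34.

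The largest decrease was intergenic, at chr18:7018546-7019225. It had 50.2 and 31.9 in BT-named libraries, against 168 and 145 in Control-named libraries, a log2 difference of -1.93 ± 0.18 (SE, limma adjusted p = 5.20e-19). A region in the body of LOC101906708 had 28.4 and 28.3 in BT-named libraries, against 101 and 108 in Control-named libraries (chr18:20123331-20124029, -1.85 ± 0.19, SE, limma adjusted p = 3.80e-16). Its BT-named peak values of 32 and 35 were near the lowest that the lists hold.

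A region 10736 bp from the start of CEBPA, a transcription factor of cell differentiation, had 38.4 and 40.8 in BT-named libraries, against 118 and 150.2 in Control-named libraries. It lies downstream of the gene at chr18:43918887-43919333, with a log2 difference of -1.73 ± 0.18 (SE, limma adjusted p = 3.51e-16). The CEBPA promoter itself had 187 and 179 in BT-named libraries and 169.7 and 199 in Control-named libraries, which overlap. The other 3 lay near LOC101902410 (-1.79), near LOC104974739 (-1.76) and between genes (-1.70). None of these 6 decreases touched a CpG island. Islands touched 10.3% of all lower and 31.3% of all higher regions of the chromosome, so nothing is read from their absence here. Among the increases away from promoters, the region near GFY touched islands, and those of SHKBP1, LOC101907857, GRIN2D and KLK10 did not.

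Zinc-finger genes form a large family on the chromosome. Their proteins bind DNA through repeated zinc-binding fingers, and many carry a KRAB domain that recruits the corepressor TRIM28 to silence repeats. An exception is ZFP36, which shares the name but binds RNA. Of 91 genes named ZNF, ZFP or ZSCAN on chromosome 18, 68 had a promoter region in all 4 lists. Of these 9 were higher and 2 lower, with a median log2 fold change of -0.02. The other genes of the chromosome had 44 higher and 17 lower of 650 and a median of -0.05, and zinc-finger genes on other chromosomes had 8 higher and 5 lower of 162 and a median of -0.12. Most of the family lies in the distal stretch, where the order of the medians turned. At 44 Mb or later 8 of 60 zinc-finger genes were higher (13.3%) and 1 was lower, with a median of -0.0151, and of 365 other genes there 36 were higher (9.86%) and 8 lower, with a median of -0.0024.

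ZNF793 rose most, as given above. ZFP82 had 145 and 171 in BT-named libraries, against 92.7 and 97.1 in Control-named libraries (log2 fold change 0.73 ± 0.16, SE, limma adjusted p = 3.72e-05). ZNF814 and ZFP1 both had 0.56. The other 5 were ZNF154, ZNF432, ZNF175, ZNF529 and ZNF667, with 0.35 to 0.43.

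Those 5 calls and that of ZNF814 were lost when 1 library was left out. ZNF814 had 0.45 without BT-named replicate 2, ZNF154 0.36 in that setting and 0.29 with Control-named replicate 1 left out, and ZNF175 0.44 and 0.39 with BT-named replicates 1 and 2 left out in turn. ZNF529 had 0.41 with either BT-named library left out and 0.32 with the first Control-named one left out, and ZNF667 had 0.38, 0.32 and 0.29 in these 3 settings. ZNF432 was lost without any 1 library, at 0.42 to 0.44. On peak values ZNF154 had 0.22 and ZNF529 0.26, and with a plain variance ZNF667 had 0.35, and these were not called either. ZNF227, with 143 and 115 in BT-named libraries against 242 and 239 in Control-named libraries, and ZNF469 were lower, and ZNF331, the tallest of the family, had -0.05 and was not called. TRIM28 lies on the same chromosome and had 0.12 (limma adjusted p = 0.544).

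For each gene list below, the share over all gene promoters to set beside its count is 4.07% higher and 4.74% lower, and nothing is read from a single call in a list of 8 to 12 genes. Of 10 stress and immediate early genes tested, 1 was higher and 0 were lower, with a median log2 fold change of 0.05. HSPB6, a small heat shock protein, had 309 and 307 in BT-named libraries, against 218 and 237 in Control-named libraries, with 0.43 ± 0.12 (SE, limma adjusted p = 0.00152). Its peak value differed by only 0.04 on the log2 scale and was not called, and the call was also lost without BT-named replicate 1 (0.43). SERTAD1, a regulator of E2F-driven transcription and the tallest of the list, had 308 and 306 in BT-named libraries and 288 and 322 in Control-named libraries. ZFP36, which degrades unstable messages, had -0.19 as deposited and 0.17 after median centring, and was not called.

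In the list of NF-kappa-B and innate immunity 1 of 8 genes was lower and 0 were higher, with a median of -0.08. CX3CL1, a chemokine bound to the membrane, had 40.2 and 59.2 in BT-named libraries, against 86.9 and 99.5 in Control-named libraries (log2 fold change -0.92 ± 0.18, SE, limma adjusted p = 8.60e-06). That call was lost when BT-named replicate 1 (-0.64) or Control-named replicate 2 (-0.82) was left out. NOD2, a sensor of bacterial peptidoglycan, had 0.34 (limma adjusted p = 0.132), and the promoter of the chemokine CCL17 was Control-only.

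Among 12 developmental transcription factors 1 was lower. IRX3, a homeobox factor of tissue patterning, had 174 and 179.8 in BT-named libraries, against 288 and 301 in Control-named libraries, with -0.73 ± 0.13 (SE, limma adjusted p = 3.79e-07). SALL1 had 0.25 at the other end of the list (limma adjusted p = 0.303). The promoter of TOX3 was BT-only and that of ZNF423 Control-only. SIX5, the tallest of the list, had 291 and 307 in BT-named libraries and 295 and 290.0 in Control-named libraries.

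The cytoskeleton and matrix list had 1 of 8 higher, the non-muscle myosin gene MYH14, with 262 and 231 in BT-named libraries against 139.9 and 179 in Control-named libraries. Its log2 fold change was 0.64 ± 0.14 (SE, limma adjusted p = 3.04e-05), and an uncharacterised locus shares the region. MMP2, a gelatinase of mesenchymal cells, had -0.60 as deposited and -0.24 after median centring, and was not called under all 3 scalings.

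Both metallothionein promoters tested, of the zinc-binding genes MT1E and MT2A, were uncalled under the 3 scalings. MT1E had 69.0 and 67.7 in BT-named libraries, against 99.3 and 132 in Control-named libraries, with -0.73 as deposited, -0.37 after median centring and -0.36 after quantile normalization. MT2A had -0.45, -0.09 and -0.08 under the same scalings.

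Most cadherins, which join cells to each other, and most genes of stratified epithelium had no promoter region in all 4 lists. Of 8 cadherin genes 3 had one and were tested, and of 14 genes of the cornified envelope and stratified epithelium 4 were. CDH15, a muscle cadherin, had 188 and 163 in BT-named libraries, against 141 and 146 in Control-named libraries, and CDH13 had 94.6 and 104 in BT-named libraries, against 141 and 158 in Control-named libraries. Their log2 fold changes were 0.28 and -0.58 (limma adjusted p = 0.0997 and 0.00107), and neither was called under all 3 scalings. SPINT2, a protease inhibitor of epithelia, had -0.56, DMKN, a secreted protein of the upper epidermis, had 0.32, and PLAUR, the urokinase receptor, had -0.37, and none was called.

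Genes of growth and metabolism gave no calls under all 3 scalings. The 13 tested genes of the cell cycle and repair ran from E2F4, a transcription factor of cell cycle genes, with -0.41 to LIG1, a DNA ligase of replication, with 0.24. ORC6, of the origin recognition complex, was the tallest, with 369 and 358 in BT-named libraries and 423 and 480.4 in Control-named libraries, and its log2 fold change was -0.31. The 9 tested chromatin regulators ran from CHD9 with -0.25 to SUPT5H, a transcription elongation factor, with 0.23, and PRMT1, an arginine methyltransferase and the tallest, had -0.03.

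Of 20 nutrient and ion transporters 8 were tested, from the amino acid carrier SLC7A6 with -0.43 to the sodium-calcium exchanger SLC8A2 with 0.40. The 9 tested genes of lipid, ketone and short-chain fatty acid metabolism ran from PLA2G15, a lysosomal phospholipase, to CPT1C, a carnitine acyltransferase of brain, with 0.19. PLA2G15 had 255 and 277 in BT-named libraries, against 354 and 405 in Control-named libraries, with -0.51 as deposited. In the growth signaling list TGFB1 had -0.36 and SHKBP1 0.20 at its promoter, apart from the region in its body given above. The 9 ribosomal protein genes ran from RPS16 with -0.32 to RPL18 with 0.08.

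These 8 lists are those with 3 or more tested genes and no call by limma under all 3 scalings. As they were picked for that, 0 called of their 61 tested genes, beside 8.81% of all gene promoters, was fixed in advance. The other counts share this selection and are given as a description. As deposited 8 of the 61 genes were lower and 0 higher, beside 20.5% and 4.07% of all gene promoters. After median centring 33 were higher, beside 42.7%. At an unadjusted p under 0.05 in all 3 scalings 1 gene was higher and 0 were lower.

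Of genes best known from other cell types, 3 were called. Both tested genes of the muscle list were higher, while the muscle cadherin CDH15 was not called. TNNI3, cardiac troponin I, had 224 and 238 in BT-named libraries, against 154 and 169.7 in Control-named libraries, and its 0.51 was not called without BT-named replicate 2 (0.47). RYR1, the calcium release channel of skeletal muscle, had 0.48. It was not called without BT-named replicate 1 (0.44), BT-named replicate 2 (0.53) or Control-named replicate 1 (0.47).

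GNAO1, a G protein subunit of neurons, had 72.1 and 74.2 in BT-named libraries, against 50 and 53.2 in Control-named libraries, and shares its region with an uncharacterised locus. Its 0.50 was not called without BT-named replicate 1 (0.52), BT-named replicate 2 (0.48) or Control-named replicate 1 (0.45), nor on peak values (0.51). Of the immune genes tested IRF8 had -0.11 and FCGRT -0.66 and neither was called, and the mesenchymal MMP2 and CDH11 were not called either. The endothelial CDH5 had no promoter region in all 4 lists.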

How the data were processed

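Open chromatin was profiled by ATAC-seq as paired reads of 42 nt. Per the labels, the submitters' processing notes name Trim Galore 0.4.1, BWA, MACS2 and the cattle build UMD3.1. How values were scaled from library to library is a step not given in the sources used here. Intervals were deposited by the authors with a peak and an average value per library, both used as signal. Read totals were not used. Starts count from 1 in the text.

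Intervals overlapping by 1 bp or more were merged, taking the highest value where 1 library had several (91 regions of chromosome 18). log2(average value + 1) of the 65892 regions in all 4 lists was compared with limma 3.58.1 in R 4.3.3 (trended, robust variance, two-sided), with Benjamini-Hochberg adjustment over all of them and a threshold of 0.05, and windows of 1 Mb with at least 5 such regions likewise. Fold changes are BT-named over Control-named on that scale, with n = 2 libraries each. A promoter is a region with a summit within 1 kb of an annotated gene start, and a gene has the one of highest mean value. Of its 809 genes, 86.3% had a name found in the RefSeq genes of ARS-UCD2.0, used for names only.

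Named are the 10 promoters that rose and the 10 that fell most, the 8 tallest BT-only and Control-only promoters, the 6 tallest regions, the 6 other regions that changed most each way, windows at the extremes, and called, extreme and tallest members of gene lists. Items these rules select that are withheld are not reported here. Members and lists were chosen with earlier results of these data known. Alternatives were other scalings, peak values, pseudocount, filter, variance, merging, window size, a replicate block and leaving out each library. Fits were tested on simulated data.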

Additional observations from a re-analysis of the deposited data

How the results depend on the processing

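Library totals were not used, so counting error is not given, and 2 libraries a group allow no exact permutation p below 0.333. The median difference between chromosome 18 and the other autosomes was 0.13 to 0.17 on the log2 scale under every alternative run. Of the 32 named promoters and regions that changed most, 30 were called in the same direction under every alternative that could be fitted, and VSIG10L and KIAA0355 each lost the call without 1 library. No result reversed among those called. As deposited alone, 730 regions and 38 windows were lower. Median centring alone gave 1070 higher regions (41.1%, beside 30.2% of all) and 40 higher windows (65.6%, beside 39.6%), and quantile normalization alone 855 (32.8%, beside 23.3%) and 32 (52.5%, beside 26.3%). Windows of 2 Mb gave 5 lower, windows of 500 kb 14 lower and 4 higher, and sums over all listed intervals 1 higher. With intervals of peak value 40 or more, the share on chromosome 18 differed by 0.381 percentage points.

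Leaving out each library in turn, higher regions numbered 129 to 302, higher windows 0 to 9 and lower windows 4 to 10. Higher regions numbered 152 without BT-named replicate 1 and 129 without BT-named replicate 2, higher windows 9 without Control-named replicate 2, and lower windows 5 when BT-named replicate 1 was left out and 4 when Control-named replicate 1 was. Regions in both BT-named libraries only numbered 249 to 329 and in both Control-named libraries only 449 to 563, with the highest count of each where replicate 1 of its own group was left out, since 1 list less then has to hold a region. With the replicate block, 259 regions were higher and 373 lower, with 0 and 6 windows. Deviations of same-numbered libraries correlated at 0.0292 over all regions, and no label states that a number marks a shared culture, so the numbers do not pair the samples.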
